A study of Mus musculus with 6 samples.

Results

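The transcriptome described here is that of untreated 3T3-CrT fibroblasts, measured on 3 of the 6 arrays in the series. All 3 arrays are those that the submitters' labels call untreated control, replicates 1, 2 and 3, and the other 3 arrays, of creatine-treated cells, were not compared with them. 3T3-CrT cells are 3T3 Tet-Off mouse fibroblasts that stably carry the rabbit creatine transporter (CrT) cDNA with a hemagglutinin tag, and the untreated wells carried the transgene and received the same selection drugs, G418 and puromycin, as the treated ones. The cells were grown in high-glucose DMEM with 10% fetal bovine serum to 70% confluency on 6-well plates, with no creatine added to the medium. The study hybridized these RNAs as the baseline of a search for transcripts raised by saturating creatine. The 3 untreated samples are replicate wells of 1 line, so the spread between them may be technical and does not include differences between lines or animals.

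Fibroblasts are connective tissue cells that secrete collagens, fibronectin and proteoglycans and pull on this matrix through actin stress fibres. Fibroblasts in culture divide while serum and free space allow, and serum keeps growth factor receptors and immediate early genes engaged. The 3T3 lines are immortal mouse embryo fibroblasts that stop dividing when they touch.

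The unit of every level below is the scanner signal of 1 probe with its background still included. A probe was called detected where its p-value against the negative control probes of its array was 0.05 or less, and a gene was placed by the mean signal of its brightest probe among those detected on all 3 arrays. A probe's brightness also depends on its sequence, so the ranks order signals and not amounts of RNA. Of 45281 probes on the array, 15341 (33.9%) were detected on all 3 untreated arrays, 3438 on 1 or 2 and 26502 on none. Between 16396 and 17249 probes were detected on each array, and the median signal of an array lay between 157 and 167. The brightest probe of each array lay between 51410.3 and 53276 and was 280 to 301 times the lowest detected signal, which was 179, 190.4 and 171 on replicates 1, 2 and 3. Replicate 1 stood somewhat apart, with a correlation of log2 signals over detected genes of 0.993 with replicate 2 and 0.994 with replicate 3, against 0.997 between replicates 2 and 3.

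The detected probes with a gene name covered 8501 genes, 80.3% of the 10585 genes with a named probe. Among them were 8357 of the 21900 protein-coding genes of RefSeq (38.2%). This last share is the background for each list of genes below, also where a count stands alone. For list members with a named probe the background is 80.3%, and a share near it does not set a list apart. A further 1440 named genes were detected on 1 or 2 untreated arrays. Another 644 had a named probe and were detected on none. Gene names were at hand only for the 20308 probes detected on at least 1 of the series' 6 arrays, and 2188 of the probes detected on all 3 untreated arrays had no name, 52 of the 100 brightest among them. A gene with no named probe can therefore be silent, be read by an unnamed probe or have no probe on the array, and it is not called absent here. Actg1, Eno1, Trp53 and Fau, which most cells transcribe, were such genes and were picked as examples after this was seen.

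Mean signals of the 8501 detected genes ran between 181 and 52453, with a median of 717 and quartiles of 319 and 1905. The 20 brightest genes held 5.20% of the summed signal, the brightest 100 held 18.5%, and the top 10% (850 genes), with means of 4873 or more, held 56.7%. The bands of the ranking used below are this top 10%, the middle 10% (the 850 genes around the median, with means between 601 and 844) and the bottom 10% (851 genes, between 181 and 220.1). Values after ± are SDs over the 3 arrays (n = 3).

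**Figure D1:**
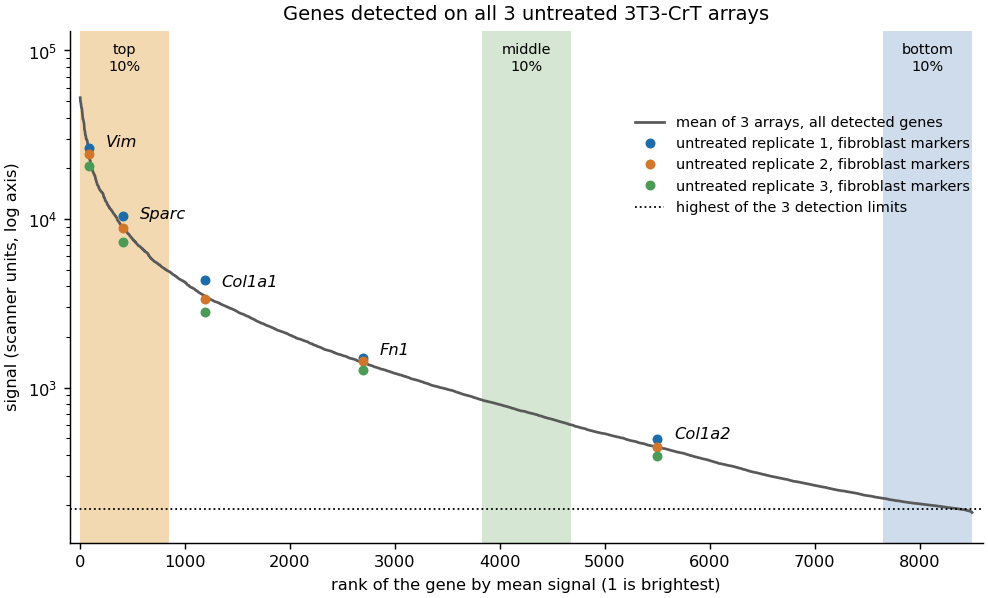
Signal (scanner units, log axis) against rank for the 8501 genes detected on all 3 untreated arrays. The line is the mean of 3 arrays, coloured points are the 5 fibroblast markers on each array, shaded spans are the top, middle and bottom 10% and the dotted line is the highest of the arrays' 3 detection limits (190.4). Vim and Sparc lay in the top 10% and Col1a2 below the median.

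All 5 genes fixed as fibroblast markers were detected on all 3 arrays, and they spanned most of the ranking. Vim, the intermediate filament protein of mesenchymal cells, had signals of 26429, 24452 and 20634 on replicates 1, 2 and 3 and stood at rank 85. Sparc, a secreted glycoprotein that binds collagen, had 10427, 8865 and 7315 and stood at rank 408. Both lay in the top 10%, and each was brightest on replicate 1 and dimmest on replicate 3, the order of overall brightness of detected genes on the arrays. The collagen I chains were set far apart on this scale. Col1a1 had signals of 4369.6, 3362 and 2802, with a mean of 3511 ± 795 (SD, n = 3), at rank 1187. Col1a2, whose product joins that of Col1a1 in the same collagen I trimer, had 495, 441 and 393 and stood at rank 5499, below the median of all detected genes. Their 1 probe each was read against the same background, and a difference between probes cannot be told apart from a difference in RNA. Fn1, which encodes fibronectin, had 1498, 1433 and 1268 at rank 2697 by its brightest probe, while its dimmest detected probe averaged 258.

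The largest family at the top of the ranking was the translation machinery. The brightest gene was Mif, a secreted cytokine first described for its action on macrophages, at 52673, 53276 and 51410.3 on replicates 1, 2 and 3. Of the 20 brightest genes 10 encoded cytosolic ribosomal proteins, with means between 43897 for Rpl9 and 49947 for Rps12. Between them were Rps29, Rps2, Rps4x, Rpl37, Rpl35, Rpl38, Rps24 and Rplp1. Eef1a1, which brings aminoacyl-tRNA to the ribosome, averaged 49087 ± 1197. The other members were Tuba1b (50595 ± 2011), an alpha-tubulin, Ccn2 (49393 ± 983), a matrix-associated growth regulator induced by TGF-beta, Acta2 (47579 ± 961), the smooth muscle actin that also marks contractile fibroblasts, and Actb (45446 ± 1230.1), a cytoplasmic actin. The list ended with S100a11 (47508 ± 1999), a calcium-binding protein, Ppia (45334 ± 1554), the prolyl isomerase cyclophilin A, Atp5b (45123 ± 2609.6), the beta subunit of the mitochondrial ATP synthase, and Fth1 (44347 ± 3329), the ferritin heavy chain. All 20 lay within 43897 to 52453, close to the brightest signal of any probe, and of the 19 neighbouring pairs in this list 0 kept the same order on all 3 arrays. The order within the 20 was thus not resolved by 3 arrays. Their SDs in scanner signal were small, but those in the authors' processed values, which are normalized between arrays, were not. These ran from 0.127 for Rpl9 to 0.241 for Ccn2 on the log2 scale, against a median of 0.090 over all detected genes. Rps12 had signals of 49980, 49852.5 and 50008 on replicates 1, 2 and 3, where the median detected gene had 800, 726 and 615. The cause was not tested. Several of the 20 belong to families with near-identical copies (ribosomal proteins, tubulins, actins), whose transcripts can share a probe.

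The promoters of these genes are shown because CpG content, which the ranking did not use, differed between the bands. The sequences are the 250 bases before the start site in RefSeq's GRCm38.p6 annotation, written 5′ to 3′ on the gene's own strand, and 6979 of the 8501 detected genes had one. Capitals mark 4 motifs. These are TATAAA on the gene's strand between 50 and 16 bases before the start, the letters bound by the TATA-binding protein, and on either strand CCAAT for the core of NF-Y sites, GGGCGG for that of Sp1 sites and CCGGAA for that of ETS sites. Occurrences that overlapped were each counted. Mif (chr10:75860278-75860527, minus strand) and Rps12 (chr10:23787210-23787459, minus strand) stand for the brightest genes, Vim (chr2:13574061-13574310, plus strand), Sparc (chr11:55420081-55420330, minus strand) and Col1a2 (chr6:4505368-4505617, plus strand) for the fibroblast markers, Des (chr1:75360042-75360291, plus strand), the intermediate filament of muscle, for genes detected on no untreated array, and Adipoq (chr16:23146286-23146535, plus strand), the fat cell hormone adiponectin, for genes with no named probe.
Mif: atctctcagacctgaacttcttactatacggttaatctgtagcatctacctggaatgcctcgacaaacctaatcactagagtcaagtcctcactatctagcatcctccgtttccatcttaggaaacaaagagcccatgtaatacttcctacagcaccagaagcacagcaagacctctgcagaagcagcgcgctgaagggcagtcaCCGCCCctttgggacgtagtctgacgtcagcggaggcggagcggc
Rps12: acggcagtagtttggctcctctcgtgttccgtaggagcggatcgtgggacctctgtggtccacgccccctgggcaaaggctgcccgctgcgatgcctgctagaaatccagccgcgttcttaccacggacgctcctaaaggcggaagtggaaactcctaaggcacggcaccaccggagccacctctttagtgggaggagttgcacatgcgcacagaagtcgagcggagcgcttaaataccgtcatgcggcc
Vim: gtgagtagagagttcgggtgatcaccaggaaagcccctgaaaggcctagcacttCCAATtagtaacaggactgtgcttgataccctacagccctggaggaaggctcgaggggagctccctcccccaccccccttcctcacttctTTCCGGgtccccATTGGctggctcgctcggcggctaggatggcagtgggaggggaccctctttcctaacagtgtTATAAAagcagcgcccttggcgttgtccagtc
Sparc: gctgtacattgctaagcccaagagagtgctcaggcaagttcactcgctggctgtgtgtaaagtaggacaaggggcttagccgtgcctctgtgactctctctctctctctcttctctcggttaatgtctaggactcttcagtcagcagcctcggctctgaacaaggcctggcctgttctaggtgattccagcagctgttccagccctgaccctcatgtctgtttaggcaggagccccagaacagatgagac
Col1a2: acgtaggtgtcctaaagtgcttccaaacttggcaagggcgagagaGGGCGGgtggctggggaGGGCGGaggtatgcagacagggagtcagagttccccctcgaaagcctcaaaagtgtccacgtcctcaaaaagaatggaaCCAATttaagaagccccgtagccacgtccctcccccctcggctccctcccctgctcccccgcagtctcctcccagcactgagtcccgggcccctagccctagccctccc
Des: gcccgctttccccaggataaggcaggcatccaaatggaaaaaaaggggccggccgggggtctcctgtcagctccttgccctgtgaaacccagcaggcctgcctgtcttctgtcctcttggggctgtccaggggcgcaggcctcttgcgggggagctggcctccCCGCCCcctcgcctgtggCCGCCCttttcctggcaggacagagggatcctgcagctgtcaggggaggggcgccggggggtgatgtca
Adipoq: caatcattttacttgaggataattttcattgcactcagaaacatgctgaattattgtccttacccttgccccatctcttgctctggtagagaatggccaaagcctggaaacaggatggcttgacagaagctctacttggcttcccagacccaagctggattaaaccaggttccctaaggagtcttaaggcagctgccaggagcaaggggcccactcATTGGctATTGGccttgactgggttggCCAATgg

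Rps12 had 21 CpG pairs in this window, an observed over expected ratio of 0.91, and Mif had 11, a ratio of 0.69. The fibroblast markers shown held fewer for their base composition, with ratios of 0.38 for Vim, 0.22 for Sparc and 0.47 for Col1a2. The other markers, Col1a1 and Fn1, are not shown, so these ratios do not describe the markers as a set. Vim and Sparc, both in the top 10%, lay below the lower quartile of that band, 0.63. Des had 0.35 while Adipoq had no CpG pair. Vim carried TATAAA 32 bases before its start and Col1a2 carried GGGCGG 2 times. Over the bands, the median ratio was 0.80 in the top 10% (694 promoters), 0.76 in the middle 10% (694) and 0.64 in the bottom 10% (675), against 0.28 in the 9013 promoters of coding genes with no named probe and 0.54 over all 17492 coding genes with a promoter sequence. The top 10% and middle 10% thus lay close together and the bottom 10% reached furthest down, the lower quartile being 0.63 in the top 10% and 0.33 in the bottom 10%. GC content differed less between the bands, with medians of 60%, 60.6% and 58.4% in the top, middle and bottom 10% of the ranking, 50.4% in coding genes with no named probe and 55.2% over all coding genes.

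Motif letters were spread in different ways over the same bands. GGGCGG was present in 62.2% of promoters of the top 10%, 63.8% of the middle 10% and 52.4% of the bottom 10%, against 27.6% of those of coding genes with no named probe and 42.7% of all. CCGGAA was in 27.4%, 26.8% and 14.8% of promoters of the top, middle and bottom 10%, in 8.62% of those with no named probe and in 15.2% of all. CCAAT varied little, between 38.9% in the middle 10% and 35.6% in coding genes with no named probe, with 36.3% over all. TATAAA was rare in every band, at 2.74% of the top 10%, 1.01% of the middle 10% and 2.07% of the bottom 10%, against 4.88% of coding genes with no named probe and 3.22% of all. GGGCGG and CCGGAA contain CpG pairs themselves, so their shares and the CpG ratio are not separate measures. A match is a run of letters and not a bound site.

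**Figure D2:**
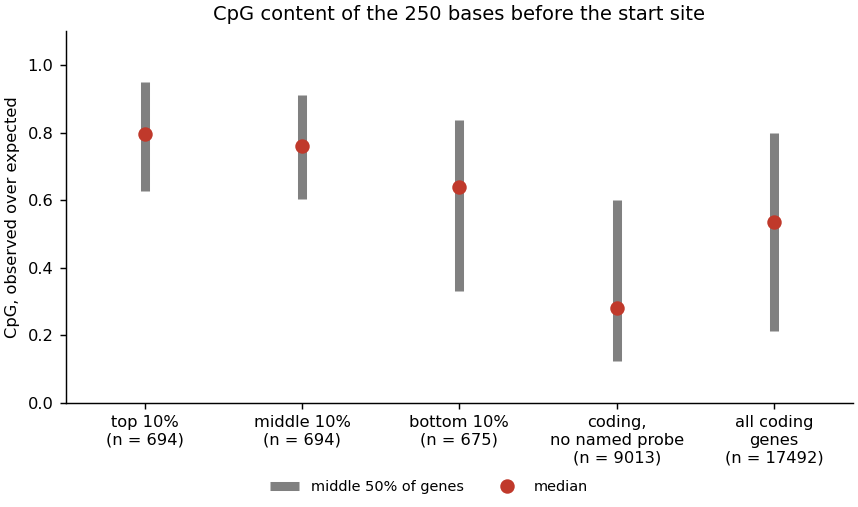
Observed over expected CpG ratio in the 250 bases before the start site, by band of the signal ranking, for coding genes with no named probe and for all RefSeq coding genes. Points are medians over genes and bars span the lower to the upper quartile. The medians were 0.80, 0.76 and 0.64 in the top, middle and bottom 10% of the ranking, 0.28 with no named probe and 0.54 over all coding genes.

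Matrix genes were detected in larger shares than coding genes as a whole, and few of the structural proteins were among the brightest genes. Of the fibrillar collagens 6 of 11 were detected on all 3 arrays (54.5%, against the background of 38.2%), with a median signal of 451 that lay below the 717 of all detected genes. Among members with a named probe their share lay below the 80.3% of all named genes, since 4 were detected on 1 or 2 arrays only. In the glycoprotein and proteoglycan lists below, every member with a named probe was detected on all 3 arrays. A name itself required detection on at least 1 of the series' 6 arrays, and 10 of 24 and 4 of 14 members had no named probe. Among the fibrillar collagens Col5a1, a chain of the minor collagen V, was the brightest at 4435, 4136 and 3319.6. Col1a1, Col5a2 (459 ± 100.5) and Col1a2 followed. Col3a1, the collagen III chain, had 409, 315 and 271, and Col5a3 (195 ± 19) lay near the detection limit. Of the remaining fibrillar chains, Col2a1, Col11a1, Col11a2 and Col27a1 were detected on 1 or 2 arrays, and where detection on at least 2 arrays was accepted the count became 10 of 11. Of the other collagens 8 of 14 were detected, with Col4a1 (3416 ± 438) and Col4a2 (2183 ± 482), the chains of the main basement membrane collagen, Col8a1 (2422 ± 787) and Col16a1 (2388 ± 352) the brightest. Col8a1 was uneven, with 3330.4, 1981 and 1953 on replicates 1, 2 and 3.

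Matrix glycoproteins were detected for 14 of 24 genes, with a median of 671. Fbln2, which encodes fibulin-2 of elastic fibres and basement membranes, had 14754, 11622 and 10023 and was the brightest. Tnc, the adhesion-modulating tenascin-C, averaged 2257 ± 459.5, and the remaining members had no named probe in 10 cases, Postn, Eln and Fbn1 among them. Of the proteoglycans 10 of 14 were detected. Bgn, the small leucine-rich biglycan, stood far above the rest of the list at 31159, 28725 and 24363, rank 71, and Gpc1, a membrane-anchored glypican, averaged 6588 ± 829.6. Sdc2, a transmembrane syndecan, had 2481 ± 301, and Ogn, the leucine-rich osteoglycin, had 1796 ± 376. Dcn, Lum, Fmod and Prelp, the other small leucine-rich members, had no named probe. Vcan, the large proteoglycan versican, averaged 209 ± 14.6 and lay in the bottom 10%.

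Of the enzymes and chaperones that fold and cross-link collagen 12 of 15 were detected, with a median of 3341, against 451 for the fibrillar and 2165 for the other collagens. Serpinh1, the collagen chaperone Hsp47 of the endoplasmic reticulum, had 17939.5, 16874 and 14991 and stood at rank 156. Loxl1, a lysyl oxidase that acts on elastin and collagen, had 10269, 11419 and 8786, while a second Loxl1 probe averaged 197. P4hb, a subunit of the prolyl hydroxylase, averaged 7845 ± 642, and Pcolce, which speeds removal of the collagen propeptide, averaged 4938 ± 853. Lox itself had 4966, 3638 and 3157, and Fkbp10, Loxl2 and Loxl3 had no named probe.

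Cytoskeletal and contractile genes had a higher median signal than the lists of matrix genes, mesenchymal surface proteins and mesenchymal transcription factors. No other cell type was measured, so whether this is typical of fibroblasts was not tested. Of the list 19 of 22 were detected (86.4%, against 38.2% of coding genes), all 19 in the upper 50% of the ranking and 12 in the top 10%, with a median of 8977. After Acta2 and Actb came Myl6, a myosin light chain of non-muscle cells, at 33911, 35502 and 31839.9, and Tpm1, a tropomyosin that lines actin filaments, at 33368, 30971 and 24632. Zyx, a focal adhesion protein, averaged 20863 ± 2472 and Actn1, which cross-links actin filaments, 14790.00 ± 2279. Tagln, an actin-binding protein of smooth muscle and myofibroblasts, averaged 1287 ± 149. The dimmest detected member, Actg2, a smooth muscle actin of the gut, still averaged 1239.6 ± 203. Cnn1, Cnn3 and Actg1 had no named probe.

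Surface proteins and receptors were spread over the whole ranking. Of the mesenchymal surface proteins 11 of 16 were detected (68.8%, against 38.2% of coding genes). The brightest were Cd44, the hyaluronan receptor (6743, 8054 and 5573), and Vcam1, an adhesion molecule (2760.1 ± 394). The fibronectin receptor subunits Itga5 (2313 ± 779.6) and Itgb1 (1373 ± 239) followed. Eng and Icam1 were detected on 1 or 2 arrays, and Thy1, Ly6a and Fap had no named probe. Of the growth factor and cytokine receptors 19 of 31 were detected (61.3%), with a median of 657. Axl, a receptor tyrosine kinase that binds Gas6, had 17379, 16974 and 13163 and was the 1 receptor in the top 10%, and its second probe averaged 196. The receptors of the TGF-beta superfamily followed, with Tgfbr2 at 2847 ± 433, Bmpr2 at 1915 ± 326 and Tgfbr1 at 1664 ± 147. The PDGF receptors, through which platelet-derived growth factor acts on fibroblasts, were dim. Pdgfra had 364, 336 and 249 and Pdgfrb had 244, 193 and 180.1 on replicates 1, 2 and 3, and the last of these values was close to the limit of its array, 171. Fgfr1 (219.9 ± 31.7) and Met (208 ± 20.1) also lay in the bottom 10%.

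The transcription factors of the mesenchyme lay mostly above the median of detected genes. Of 19 in the list 13 were detected on all 3 arrays, 10 of them in the upper 50%. Tcf4, a basic helix-loop-helix factor, was the brightest at 7276, 5454 and 4996. Sox9, which also directs cartilage formation, averaged 2296 ± 269.9, Srf, the serum response factor that controls actin genes, 2196 ± 318, and Tead1, a DNA-binding partner of YAP, 2169 ± 578. Among factors known for repressing epithelial genes or for patterning mesenchyme, Twist1 (1259 ± 250.2), Twist2 (2152 ± 336), Snai2 (1277 ± 257), Zeb1 (1535 ± 185), Zeb2 (1310.4 ± 270.3) and Prrx1 (1116 ± 127) lay between 1116 and 2152, and Snai1 (716 ± 144) lay just below the median of all detected genes. Foxf1, a factor of visceral mesenchyme, was detected on none of the 3 arrays, at 158, 169 and 159.

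Of the Hox genes, which record position along the body axis, 12 of 39 were detected on all 3 arrays (30.8%, below the background of 38.2%), and only Hoxd8 lay in the upper 50% of the ranking. Hoxd8 had 1913, 1532 and 1510.5, Hoxd10 666, 537 and 557 and Hoxa5 548, 598 and 514. Hoxd13 averaged 377 ± 53.4, and 4 of the 12 lay in the bottom 10%. A further 8 were detected on 1 or 2 arrays, and Hoxa2 on none (172, 166 and 141). Detected members thus came from each of the 4 clusters, with those of the Hoxc and Hoxb clusters near the limit of detection. At a detection p of 0.01 or less the count became 8 of 39. Of the imprinted genes, which are read from the copy of 1 parent, 3 of 17 were detected. They were Gnas (2953 ± 453), a G protein subunit, Igf2r (540.4 ± 78.3), the receptor that clears Igf2, and Grb10 (191 ± 15.4), an adaptor that dampens insulin signalling. Igf2 itself was detected on none, at 142, 181 and 165, and 12 imprinted genes, H19, Dlk1 and Meg3 among them, had no named probe.

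**Figure D3:**
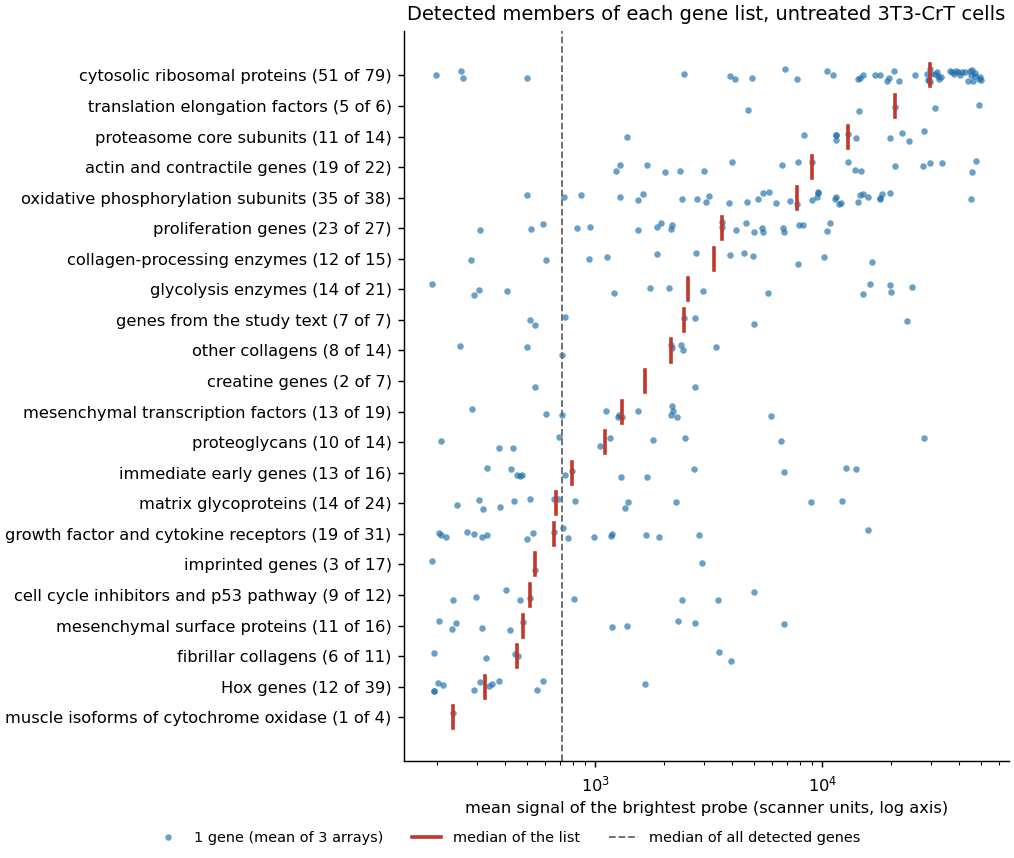
Mean signal (scanner units, log axis) of the detected members of each gene list in untreated 3T3-CrT cells, with the number detected on all 3 arrays of the number listed. Each point is 1 gene, red bars are list medians and the dashed line is the median of all detected genes (717). Ribosomal proteins had a median of 29608 and Hox genes one of 326.

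The housekeeping programmes filled the top of the ranking and also showed how far probes of 1 complex can differ. Of 79 cytosolic ribosomal protein genes 51 were detected on all 3 arrays, 44 of them in the top 10% and 31 among the brightest 100, with a median of 29608. The detected genes of this list spanned means between 199.7 for Rpsa and 49947 for Rps12. Rps15a (248, 280.2 and 243) and Rpl21 (264, 264 and 255) were dim as well, and Rpl14 was detected on 1 or 2 arrays only. Less RNA and a dimmer probe cannot be told apart here, so a dim probe alone does not show a low level of a gene's RNA. Of the elongation factors 5 of 6 were detected, with Eef1g at 31235 ± 2259, Eef1d at 20841 ± 2021, Eef1b2 at 14513 ± 2624 and Eef2 at 4718 ± 961, while Eef1a2, the form of muscle and neurons, had no named probe. Of the proteasome core subunits 11 of 14 were detected and 10 lay in the top 10%, with Psma5 (27964 ± 2543), Psmb4 (23956 ± 2297), Psma2 (22379 ± 2058) and Psma4 (19912 ± 2239) the brightest.

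Energy metabolism was represented by both of its main routes. Of the nuclear-encoded oxidative phosphorylation subunits 35 of 38 were detected (92.1%), 23 of them in the top 10%. Atp5b had 47834, 44906 and 42628. The next were Cox5a (19829 ± 3178) and Cox4i1 (18359 ± 2708) of cytochrome oxidase and Ndufa4 (17980.2 ± 2557), also found in that complex. Of the muscle isoforms of cytochrome oxidase Cox6a2 alone was detected, at 247, 239.96 and 223, Cox7a1 was detected on none (159, 188 and 167), and Cox8b had no named probe. Cox4i2, which was in the same list but is not a muscle isoform, had no named probe either. Of the glycolysis enzymes 14 of 21 were detected (66.7%, against 38.2% of coding genes). Pkm, the last enzyme of the pathway, had 30349.6, 23427 and 20692, Ldha, which turns pyruvate into lactate, 22356, 19877 and 17628, and Gapdh 24082, 18609.8 and 16706. Tpi1, a triose isomerase, averaged 16262 ± 1963. Each of these lay in the top 10%, whereas Ldhb, the other common lactate dehydrogenase chain, averaged 191 ± 7.06 in the bottom 10%.

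Genes of the cell cycle were detected widely. Of the proliferation genes 23 of 27 were detected (85.2%), 20 of them in the upper 50%, with a median of 3617. Ccnd1, the D cyclin that serum induces in G1, had 10374, 12321 and 9770.4, and Cdk1, the kinase of mitosis, 12461, 10065 and 8929. Mcm4, a subunit of the replicative helicase, averaged 8175 ± 743, and Ccnd2 7896 ± 941. After quantile normalization the members differed between arrays in both directions, replicate 1 lying 0.30 above the mean of the 3 arrays for Mcm7 and 0.24 below it for Plk1 on the log2 scale, and the median SD of the list was 0.13, against 0.087 over all detected genes. Of the cell cycle inhibitors and p53 pathway genes 9 of 12 were detected (75%, against 38.2% of coding genes). Cdkn2a, the locus of p16Ink4a and p19Arf, had 5954, 4887 and 4089.6 and lay in the top 10%. Mdm2, the ligase that destroys p53, averaged 3453 ± 319.6, Cdkn2b 2413 ± 514 and Cdkn2c 802 ± 131. Cdkn1a, the p21 inhibitor that p53 induces, averaged 298 ± 19, and Trp53 itself had no named probe.

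Immediate early genes, which serum switches on without new protein synthesis, were detected for 13 of 16 members (81.2%, against 38.2% of coding genes). Ier3 had 15098, 14453 and 12760.5, Egr1, a zinc-finger factor, 13758, 12679.8 and 11474, and Dusp1, a MAP kinase phosphatase, 7423, 6926 and 5974. These 3 lay in the top 10%. Junb averaged 2726 ± 399, while Fos (475 ± 82.2), Jund (452 ± 100.3) and Myc (464 ± 30.3) lay below the median of detected genes. The list as a whole, with a median of 793, was near the 717 of all detected genes.

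Of the creatine genes 2 of 7 were detected on all 3 arrays. Slc6a8, the mouse creatine transporter gene, had 3402, 2581 and 2275, rank 1531. The cells carry a rabbit transporter cDNA, and whether the mouse probe also binds its transcript is not given in the sources used here. Gamt, which methylates guanidinoacetate in the last step of creatine synthesis, had 536, 612 and 485, and Gatm, Ckb, Ckm, Ckmt1 and Ckmt2 had no named probe. A short list of 7 genes picked from the study's text holds both of these and 5 others, and all 7 were detected. Sgk1, the serum- and glucocorticoid-regulated kinase, was the brightest of the 7 at 25639, 23814 and 21406, rank 87, and Sgk3, its relative, had 781, 803 and 616. Txnip, the thioredoxin-interacting protein on which the study centres, had 526, 554 and 465 and lay below the median at rank 5085. Rplp0, the study's reference gene in PCR, averaged 2465 ± 307, and Ppib, the prolyl isomerase cyclophilin B, 4992 ± 856.

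At the median rank stood Mettl25, a methyltransferase-like protein (832, 672 and 646). The 5 genes above it were Gtf2f1, a subunit of the general transcription factor TFIIF, Gas2l1, Zbtb41, Ttf2, a transcription termination factor, and Bahd1, a heterochromatin protein. The 5 below were Ncapg2, a condensin II subunit, Evc, a protein of the primary cilium, Slc15a4, a lysosomal transporter, Bcas3 and Snai1, a repressor of epithelial genes. Their means lay within 716 to 718, a narrower range than the spread of any 1 of them over its 3 arrays, as with Snai1 at 803, 795 and 549. Ranks were accordingly coarse. Of pairs of genes 100 ranks apart 25.6% kept the same order on all 3 arrays, of pairs 500 ranks apart 92.8% and of pairs 1000 ranks apart 99.9%.

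The bottom of the ranking lay at the detection limit. The 5 dimmest detected genes were Slc43a1, an amino acid transporter, Klhl34, Gm41795, S100a16, a calcium-binding protein, and Saxo2, with means between 181 and 183. S100a16, with 182, 190.5 and 172, cleared the limits of 179, 190.4 and 171 on replicates 1, 2 and 3 by a few units or less. Just inside the threshold, with a highest detection p of 0.0491, was a probe of Sec61a1 with signals of 219.7, 190.5 and 174.6. Just outside, at 0.0502, was a probe of Nrp2 with 185, 194 and 170.2. In this range calls turned on a few units of signal.

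**Figure D4:**
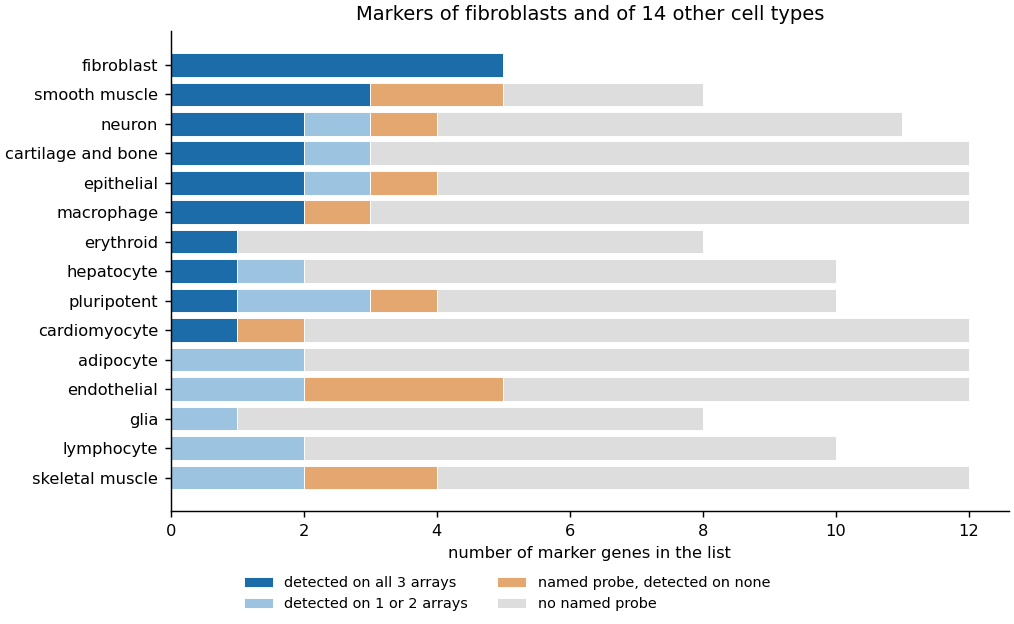
Number of marker genes of fibroblasts and of 14 other cell types by their detection on the untreated arrays. Bar segments count genes detected on all 3 arrays, on 1 or 2, on none despite a named probe, and genes with no named probe. All 5 fibroblast markers were detected on all 3 arrays, against 15 of 148 markers of other cell types.

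Markers of 14 other cell types were detected in a smaller share than coding genes as a whole. Of 148 such markers 15 (10.1%, against 38.2%) were detected on all 3 arrays, 15 on 1 or 2 and 11 on none, and 107 had no named probe. Of the 15 detected, 6 lay in the bottom 10% and 6 in the upper 50%. No member of the adipocyte, lymphocyte, endothelial, skeletal muscle or glial lists was detected on all 3 arrays, though with replicate 2 left out the adipocyte, endothelial and skeletal muscle lists had 1 detected member each. Smooth muscle had 3 of 8, namely Acta2, Smtn (5074 ± 1055), a stress fibre protein, and Tagln, of which Acta2 and Tagln are also in the contractile list, while Des (163, 181 and 166) and Myocd (168, 173 and 167), the muscle intermediate filament and the muscle coactivator of Srf, were detected on none. Stmn2, a microtubule-destabilizing protein known from neurons, had 2297, 2116 and 1745, and Map2, a microtubule-binding protein of dendrites, 299.5, 302 and 244, whereas Tubb3, the neuronal tubulin, was detected on none (157, 172 and 163). Cd14, the endotoxin co-receptor of macrophages, had 1059, 963 and 770.4, and Mrc1 averaged 209.9 ± 4.84, whereas Csf1r, the receptor that macrophages depend on, was detected on none (154, 188 and 169.7). In RNA from many cells, fewer cells of a type and less RNA per cell cannot be told apart.

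The other detected markers came 1 or 2 to a list. Nppb, the natriuretic peptide of strained heart muscle, had 737, 734 and 545, in the middle 10%, while Myh7 was detected on none (171, 169 and 148). Krt19 (478, 427 and 368) and Krt8 (234, 203 and 211) are keratins of simple epithelia, and Cdh1, their adhesion protein, was detected on none (154, 159 and 156). Of the cartilage and bone list Sox9, given above at 2296, and Alpl (205 ± 5.87) were detected. Epor (208 ± 7.90), the erythropoietin receptor, Hnf4a (196 ± 21.5), a liver factor, and Nanog (199 ± 22.0), a factor of embryonic stem cells, were each the 1 detected gene of their list and lay in the bottom 10%. With detection p set at 0.01, Krt8, Alpl, Hnf4a and Nanog were no longer counted. Of the endothelial list Esam, Egfl7 and Nos3 were detected on none, of the skeletal muscle list Acta1, and of the pluripotent list Zfp42.

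The named genes with no detection were a small class whose size depended on the arrays used. Of 10585 named genes 644 (6.08%) were detected on none of the 3 arrays, and they carry a name only because a creatine-treated array detected them, so they are no sample of the silent genes of the genome. Without replicate 1 the count was 973 and without replicate 3 it was 1052. With a detection p of 0.01 it was 1967. Such genes are absent only in the sense that none of their named probes passed a detection p of 0.05 on these arrays.

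The 3 replicates agreed closely once their overall brightness was set equal. Signals of detected genes were higher on replicate 1 than on replicate 3 by a median of 0.32 on the log2 scale, and on replicate 2 than on replicate 3 by 0.22, in the deposited signals. The median SD over arrays was 0.18 on the log2 scale, a coefficient of variation of 12.7%, and it fell to 0.087 after quantile normalization and was 0.090 in the authors' processed values. Without replicate 3 the SD of the deposited signals was 0.10. Across genes, which are not independent replicates, the correlation of log2 signals was 0.993, 0.994 and 0.997 for the 3 pairs. In the deposited signals 20 genes (0.235%) differed by more than 2-fold between any arrays. After quantile normalization 1 gene did so between replicates 1 and 2, and 0 did in each of the other pairs. The spread was smallest in the bottom 10%, at a median of 0.099 before and 0.064 after quantile normalization, where the signal is mostly background, against 0.19 and 0.079 in the top 10%.

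**Figure D5:**
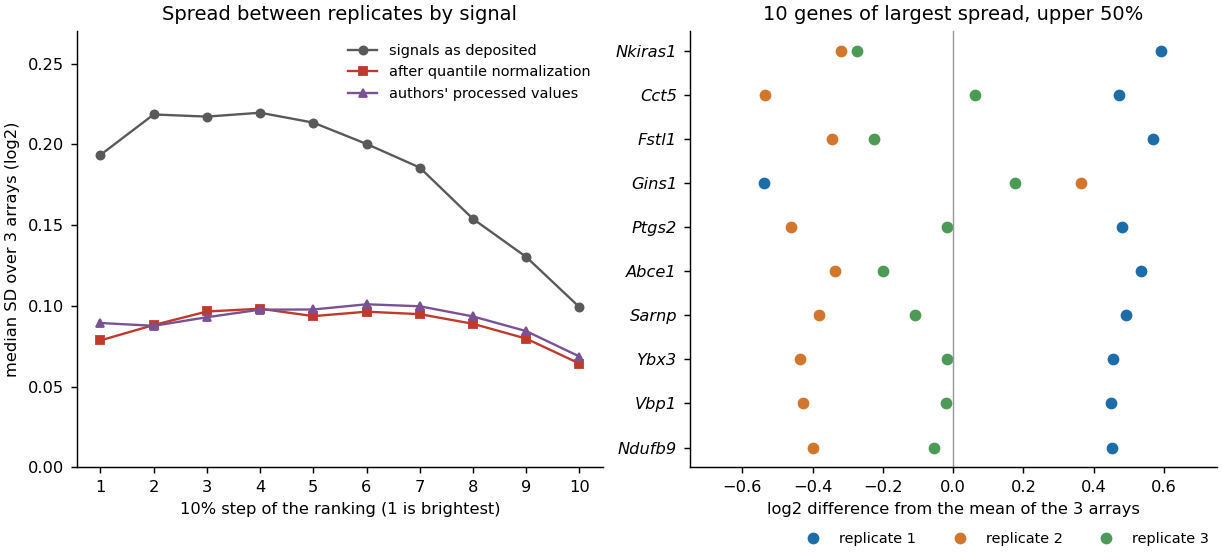
Left, median SD over the 3 untreated arrays (log2 scale) for each 10% of the signal ranking, brightest first, for signals as deposited, after quantile normalization and in the authors' processed values. Right, log2 difference of each replicate from the mean of the 3 arrays, after quantile normalization, for the 10 genes of largest SD in the upper 50% of the ranking. Replicate 1 was the highest for 9 of these 10 genes.

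The genes that differed most between replicates shared a pattern. Among the upper 50% of the ranking, the 10 genes of largest SD after quantile normalization had SDs between 0.43 and 0.51 on the log2 scale, and 9 of them were highest on replicate 1. Nkiras1, an inhibitor of NF-kappaB, had deposited signals of 1512, 723 and 628 on replicates 1, 2 and 3. Fstl1, a secreted glycoprotein of the follistatin family, had 5942, 2844 and 2577. Ptgs2, the inducible cyclooxygenase, had 1613, 754 and 857. In each of these the deposited signal on replicate 1 stood well above those on the other arrays. After quantile normalization replicates 2 and 3 were close for Nkiras1, at log2 differences from the mean of -0.32 and -0.27, and for Fstl1 (-0.35 and -0.22). For Ptgs2 they were apart, at -0.46 and -0.018, with replicate 1 at 0.48. Cct5, a chaperonin subunit, Abce1, a ribosome recycling factor, Sarnp and Ybx3, a cold-shock domain protein, were also highest on replicate 1. So were Vbp1, a prefoldin subunit, and Ndufb9, a complex I subunit. Gins1, a replication protein, was the exception at 543, 936 and 691, lowest on replicate 1. Of the 50 genes of largest SD, 46 were highest on replicate 1, and of the 100 largest 82 were, against 1550 of all 4250 genes in the upper 50%. These genes were chosen on the same values, so this is a description, and its cause was not tested. The smallest SDs after quantile normalization were those of S100a7a, Prnp, Bckdk, Eif1ad and Mif, all at 0.00317 or less. For Mif, the brightest gene, this followed from the normalization and says little about agreement. Mif was the brightest probe on replicates 2 and 3, and quantile normalization gives probes of equal rank the same value. In the authors' processed values the SD of Mif was 0.196, above the median of 0.090 over all detected genes. Those of the 20 brightest genes all lay above this median there, at 0.127 (Rpl9) to 0.241 (Ccn2). S100a7a, Prnp, Bckdk and Eif1ad lay between 0.015 and 0.028. Prnp, the prion protein gene, had 10739, 9815 and 8332 before normalization, which are the steps of overall brightness between the arrays.

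The choice of probe moved a gene more than the choice of array. In the 3204 genes with at least 2 detected probes, the brightest exceeded the dimmest by a median of 1.20 on the log2 scale (2.30-fold), and over the same genes the brightest array exceeded the dimmest by a median of 0.37. Background is included in both, which narrows each gap, and a range over more probes is wider than one over fewer, the median being 0.85 for the 2121 genes with 2 probes. Probes more than 8-fold apart were found in 465 genes (14.5%). The 5 genes with the widest gaps were among the brightest of all. Rpl37 had probes at 47032 and 183, and Ybx1, a cold-shock domain protein that binds mRNA, at 37313 and 194. Rpl27a (37089 and 222), H2ac20, a histone H2A gene (33395 and 256), and Eef1a1 (49087 and 385) followed. The dim probes of Rpl37, Ybx1 and Rpl27a lay near the detection limit.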

How the data were processed

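Total RNA of the 3 untreated wells was labelled and hybridized to Illumina Mouse WG-6 v2 BeadChips, 1-colour arrays, and groups and replicate numbers were taken from the sample labels. The deposited table holds signal intensities that the authors exported from GenomeStudio before any correction, so every signal includes background. The deposited detection p-values come from the same software and set each probe against the negative controls of its array, in steps that fit 936 controls. The authors' processed values, on a generalized log2 scale, were background corrected and normalized with vsn over all 6 arrays, and were used here only as an alternative. The creatine-treated arrays entered no comparison. Their only effect is on which probes carry a name.

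The probes kept were those that passed a detection p of 0.05 on every untreated array. They were named from the platform annotation (of 20308 probes, 16925 had 1 symbol, 7 several and 3376 none) and ranked by mean signal, with the brightest kept probe per gene. No test was made, since there is 1 condition, and the number of arrays limits the precision. SDs on the log2 scale were computed on signals as deposited and after quantile normalization with limma 3.58.1 in R 4.3.3. The other steps used Python 3.11.15 with pandas 2.3.3 and numpy 2.4.6, and were tested on simulated data.

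The rule for naming genes took the 20 brightest, the 5 fibroblast markers, the members of 37 lists of highest signal (up to 4) or with no detection (up to 4), all members of lists of up to 7 genes, 5 genes on each side of the median rank, the 5 dimmest, the 10 of largest and 5 of smallest SD in the upper 50%, and the 5 whose probes differed most. Other genes named, mostly further members of the lists, were chosen after their values were seen. The arrays, the lists of 590 genes and the rules were chosen with earlier results of these data known. Alternatives were a detection p of 0.01, detection on 2 of 3 arrays, each array left out, neqc with an offset of 16, quantile normalization, the processed values, the mean over probes, and other bands or promoter choices.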

Additional observations from a re-analysis of the deposited data

How the results depend on the processing

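The numbers of detected probes (13637 to 16671), detected genes (7818 to 9024) and detected list members (292 to 319) stayed within 1.5 times their values of 15341, 8501 and 306 under every threshold tried and with each array left out. The 644 named genes with no detection became 1967 at a detection p of 0.01 and 802 to 1052 with 1 array left out. The median SD between replicates, 0.18, was 0.087 after quantile normalization and 0.090 in the authors' processed values, and 0.10 to 0.23 with 1 array left out. The lowest correlation was 0.993 to 0.997 with 1 array left out. The spread between probes of a gene, 1.20, was 1.68 with neqc, which subtracts background. The top 10% shared 830 to 848 of its 850 genes with other values or fewer arrays and 712 with the mean over a gene's probes, which put Fn1 at rank 4028 and Sparc at 580. The median CpG ratio of the top 10%, 0.80, was 0.81 over genes with 1 promoter entry, an alternative chosen after seeing the data. Counts for 4 of 37 lists changed by more than 1.5 times, or to or from 0, at a detection p of 0.01. The same held for 4 lists with detection on 2 arrays, 3 without replicate 2, 1 without replicate 1 and 0 without replicate 3. Changes of 1.5 times or less were not counted. Examples are Hox genes, from 12 to 8 at a detection p of 0.01, and epithelial markers, from 2 to 3 without replicate 3. No paired analysis was possible because no groups were compared. Protein length by band was not run, because no table of protein sequences was used here. The 3 arrays of 1 line give no estimate of the spread between cultures, and signals near the limit of detection are mostly background.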

Other observations

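Several genes outside the lists were looked at after their values were seen and are given as values only. Timp1, an inhibitor of matrix metalloproteinases, had signals of 30838, 31184 and 27684 on replicates 1, 2 and 3 and stood at rank 59. Timp2, a relative, had 10542, 5698 and 5640.2, with replicate 1 well above the others, and Timp3, which binds to the matrix, had 291, 324 and 272, below the median of detected genes. Mmp2 (2689 ± 404, SD, n = 3) and Mmp14 (2878 ± 467), the gelatinase and the membrane enzyme that activates it, lay in the upper 50%. S100a4, often called fibroblast-specific protein, had 4872, 2877 and 2462, and replicate 1 was again the highest. Lgals1 (38199 ± 4597), the lectin galectin-1, and Anxa2 (39334 ± 4649.8), a membrane-binding annexin, were among the brightest 100 genes.

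Transcripts of the mitochondrial genome were bright, with CYTB at 41139.6, 38501 and 34218, ND4 at 30639, 26717 and 22153 and ND1 at 27326, 21812 and 17894, each highest on replicate 1 and lowest on replicate 3. That was also the order of overall brightness, with median signals of detected genes of 800, 726 and 615 on replicates 1, 2 and 3. Of the long non-coding RNAs, Neat1 had 2046, 1887 and 1311 and Xist, the RNA of the inactive X chromosome, 830.4, 803 and 619.7 from 4 detected probes. Of Y-linked genes, Eif2s3y was detected on none of the 3 arrays, Uty on 1 or 2, and Ddx3y and Kdm5d had no named probe.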
